A study of Mus musculus with 8 samples.

Results

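The genes described here encode the NADPH oxidases of the intestinal epithelium and of phagocytes, the subunits and maturation factors that these enzymes need, and the inducible nitric oxide synthase. They were chosen by gene symbol from a list of 10: Nox1, Noxo1, Noxa1, Duox1, Duox2, Duoxa1, Duoxa2, Cyba, Cybb and Nos2. Of these, 8 had a named probe set, 1 each, among the 19572 named probe sets of the array. Duox2 and Duoxa1 were matched to no named probe set and have no value here. The list was drawn up with the knockout and wild-type values of these arrays in view, since Nos2, Nox1 and Duoxa2 were already known to be among the genes with the largest rises. The differences of the 8 genes between knockout and wild type are therefore given as a description. No p-value is printed for them, and the calls of the fit over all probe sets are only counted.

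The samples were duodenum of 8 untreated mice, 4 lacking IκBα (gene Nfkbia) in the intestinal epithelium and 4 wild-type littermates, which the labels number as 4 sibling pairs. The knockout combined a Villin-Cre transgene with a floxed Nfkbia allele, whose recombination takes out the promoter and the first exons, so only cells that express villin are expected to delete the gene and all other cells of the gut wall keep it. The mice were 8 to 11 weeks old, and each group had 2 females and 2 males. The siblings were of the same sex in pairs 1 and 2 and of opposite sex in pairs 3 and 4. Each array gave log2 expression values for 22206 probe sets.

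NADPH oxidases move electrons from NADPH across a membrane onto oxygen, which makes superoxide or hydrogen peroxide at the cell surface or in a phagosome. Nox1 is the oxidase best known from colon epithelium. It works with the membrane subunit p22phox (Cyba), the organizer Noxo1 and the activator Noxa1. The dual oxidases Duox1 and Duox2 release hydrogen peroxide and must be carried to the cell surface by their partners Duoxa1 and Duoxa2, and Duox2 with Duoxa2 is the dual oxidase of the gut. Cybb encodes gp91phox (Nox2), the oxidase of neutrophils, macrophages and B cells, which also needs Cyba. Nos2 makes nitric oxide from arginine and is induced by inflammatory signals in macrophages and in epithelium.

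Promoter windows from RefSeq (assembly GRCm38.p6), each from 250 bases before to 50 bases after the annotated start, were at hand for 9 of the 10 genes, all but Nos2. The 4 windows printed are those of Nox1 and Noxa1, which held a match to the κB consensus, the site bound by NF-κB, and those of the neighbours Duox2 and Duoxa2. Capitals mark κB matches in the windows of Nox1 and Noxa1 and a TATA box match in that of Duoxa2. Each is written 5′ to 3′ on the strand of its gene.
Nox1, chrX:134111805-134112104, minus strand: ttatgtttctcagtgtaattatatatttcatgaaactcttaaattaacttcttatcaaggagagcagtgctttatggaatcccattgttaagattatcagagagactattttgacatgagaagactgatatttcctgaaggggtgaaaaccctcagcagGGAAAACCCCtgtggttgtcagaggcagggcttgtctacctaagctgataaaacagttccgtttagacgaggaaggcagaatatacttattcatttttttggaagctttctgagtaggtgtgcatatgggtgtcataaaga
Noxa1, chr2:25095156-25095455, minus strand: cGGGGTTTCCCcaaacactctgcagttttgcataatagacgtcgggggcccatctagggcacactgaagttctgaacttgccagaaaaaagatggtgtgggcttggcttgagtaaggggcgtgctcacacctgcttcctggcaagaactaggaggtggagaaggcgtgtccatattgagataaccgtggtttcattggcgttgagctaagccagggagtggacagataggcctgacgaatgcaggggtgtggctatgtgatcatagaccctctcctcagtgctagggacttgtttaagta
Duox2, chr2:122298178-122298477, minus strand: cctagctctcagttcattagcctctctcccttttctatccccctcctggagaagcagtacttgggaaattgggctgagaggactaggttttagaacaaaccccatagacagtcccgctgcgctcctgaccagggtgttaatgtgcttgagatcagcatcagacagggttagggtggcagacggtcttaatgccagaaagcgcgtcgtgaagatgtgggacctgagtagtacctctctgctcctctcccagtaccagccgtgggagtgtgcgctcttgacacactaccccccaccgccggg
Duoxa2, chr2:122298650-122298949, plus strand: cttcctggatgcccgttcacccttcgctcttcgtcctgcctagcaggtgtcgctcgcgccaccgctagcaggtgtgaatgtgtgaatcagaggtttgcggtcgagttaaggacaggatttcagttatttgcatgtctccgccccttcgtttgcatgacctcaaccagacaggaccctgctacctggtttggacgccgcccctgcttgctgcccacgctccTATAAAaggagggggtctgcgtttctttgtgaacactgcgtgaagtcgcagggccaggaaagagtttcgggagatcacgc

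The κB consensus, searched on both strands, was matched in 2 of the 9 windows and in 8.46% of all 32851 windows of this length. In the Nox1 window the match began 91 bases before the start, and in the Noxa1 window 249 bases before it, where the site reads as a match on both strands. The windows of Noxo1, Cyba, Cybb, Duox1, Duoxa1, Duox2 and Duoxa2 held none. The same search found 1 match in the window of Nfkbia itself. TATAAA was found in the Duoxa2 window, 30 bases before the start, and in 13.6% of all windows. TGANTCA, a loose form of the AP-1 motif with any middle base, was found in the windows of Duoxa2 and Cybb and in 7.81% of all. Each of these windows held it as TGAATCA. GAAANNGAA, a motif of interferon regulatory factors, occurred at 3 places in the Cybb window and in 8.56% of all windows. TTCNNNGAA, the STAT motif, was found in none of the 9 windows and in 8.3% of all. Matches of different motifs did not overlap in these windows. A match is a run of letters, and whether any factor binds there was not measured.

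Duox2 and Duoxa2 lie head to head on chromosome 2, on opposite strands, with annotated starts 673 bases apart. Duoxa1 and Duox1 form a second head-to-head couple on that chromosome, with starts 1942 bases apart, and the starts of Duoxa2 and Duoxa1 are 14830 bases apart. The named probe sets thus cover 1 gene of each couple, Duoxa2 and Duox1. Whether any of the 2634 unnamed probe sets measures the other genes was not examined.

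In brief, 7 of the 8 measured genes were higher in the knockout of every pair. All knockout values of these 7 lay above all wild-type values. That separation follows closely from the rise in every pair, because the means of the 4 pairs are nearly equal in the deposited values. The gaps between groups given below repeat the within-pair differences for the same reason. Nos2, Nox1 and Duoxa2 were each more than 5-fold higher. Noxa1, Noxo1 and Cyba were about 2-fold or more higher, Duox1 was less than 2-fold higher, and Cybb did not separate the groups. A fit over all probe sets with the sibling pair as a block (limma, Benjamini-Hochberg adjusted p under 0.05) called the same 7 genes higher and 0 lower, against 3.16% of all probe sets called higher and 5.86% called in either direction. Of all probe sets, 16.5% were higher in the knockout of 4 of 4 pairs, and 15.9% had all knockouts above all wild types. Rises of at least 2-fold made up 0.549%, against 5 of the 8 genes. Duox1 lost its call without pair 2 or pair 4, and with RNA integrity as a covariate Duox1 and Nos2 lost theirs. Because the genes were chosen with these values known, nothing is read from the counts. The median difference of the 8 was 1.21 on the log2 scale, and that of all probe sets −0.015. RNA of whole duodenum was measured, so more cells that express a gene and more RNA per cell cannot be told apart.

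**Figure D1:**
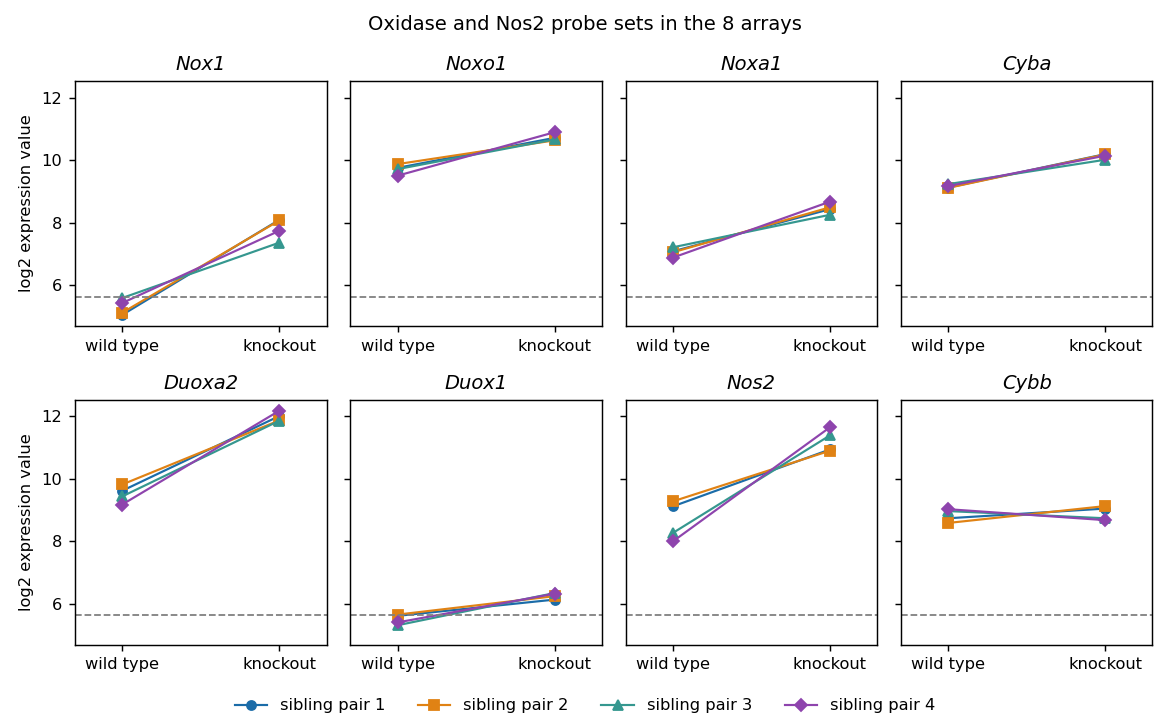
Log2 expression values (vertical axis) of the 8 measured genes in wild-type and knockout duodenum, with a line joining the siblings of each of the 4 pairs and a dashed line at the background level of 5.64, the 95th percentile of readings of olfactory receptor genes. In 7 panels all 4 lines rise, Nox1 starts below the dashed line in each wild type, and the lines of Cybb cross.

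The catalytic subunit of the epithelial complex, Nox1, read 5.06, 5.13, 5.6 and 5.44 in the wild types of pairs 1 to 4 and 8.10, 8.08, 7.37 and 7.75 in their knockout siblings. All 4 wild types were thus at or below the background level of 5.64, and all 4 knockouts were above it. The mean difference was 2.52 ± 0.595 (SD of the 4 within-pair differences, log2), or 5.73-fold. Since the wild-type readings lie at background, this fold may understate the change.

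The organizer Noxo1, which holds the active complex at the membrane, read 9.76, 9.88, 9.72 and 9.51 in wild types and 10.72, 10.64, 10.67 and 10.90 in knockouts. It was well above background in every array, and the lowest knockout exceeded the highest wild type by 0.76. The mean difference was 1.02 ± 0.266, or 2.02-fold.

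The activator Noxa1, the epithelial counterpart of the phagocyte protein p67phox, read 7.09, 7.06, 7.22 and 6.89 in wild types and 8.44, 8.50, 8.26 and 8.68 in knockouts. The groups were separated by 1.04. The mean difference was 1.41 ± 0.309, or 2.65-fold.

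Cyba, the p22phox subunit that both the epithelial and the phagocyte enzymes use, read 9.13, 9.12, 9.24 and 9.18 in wild types and 10.20, 10.19, 10.02 and 10.15 in knockouts. Its within-pair differences had the smallest SD of the 8 genes, 0.137 around a mean of 0.973, or 1.96-fold. The 4 parts of the Nox1 complex that are on the list were thus higher in each knockout than in its sibling. Rac1, which serves the complex too but is not on the list, differed by 0.19, 0.07, 0.06 and −0.08 in pairs 1 to 4. Within pairs, Nox1 rose more than Noxa1 by 1.11 ± 0.574, than Noxo1 by 1.5 ± 0.733 and than Cyba by 1.55 ± 0.463. Against each of them, Nox1 had the larger rise in 4 of 4 pairs. With wild-type Nox1 at background, these 3 excesses may be understated.

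Of the dual oxidase system, the maturation factor Duoxa2 read 9.62, 9.82, 9.44 and 9.18 in wild types and 12.01, 11.87, 11.86 and 12.18 in knockouts. The gap between the groups was 2.04 from the highest wild type to the lowest knockout. The mean difference was 2.47 ± 0.394, or 5.52-fold. Duoxa2 thus read above background in wild-type duodenum as well, unlike Nox1.

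Duox1, the dual oxidase better known from airway and thyroid, read 5.62, 5.66, 5.32 and 5.41 in wild types and 6.14, 6.25, 6.35 and 6.33 in knockouts. In wild types 3 of the 4 readings were at or below background, and the knockouts were not far above it. The mean difference was 0.77 ± 0.248, or 1.70-fold, a fold that may be understated for the same reason as that of Nox1. By how much the difference of Duoxa2 exceeded that of Duox1 cannot be given for that reason.

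Nos2, the inducible nitric oxide synthase, read 9.12, 9.28, 8.27 and 8.00 in wild types and 10.94, 10.90, 11.39 and 11.65 in knockouts. All readings were above background. The mean difference of 2.55 ± 0.989, or 5.87-fold, had the largest SD of the 8 genes. It is not ranked against that of Nox1, which may be understated.

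**Figure D2:**
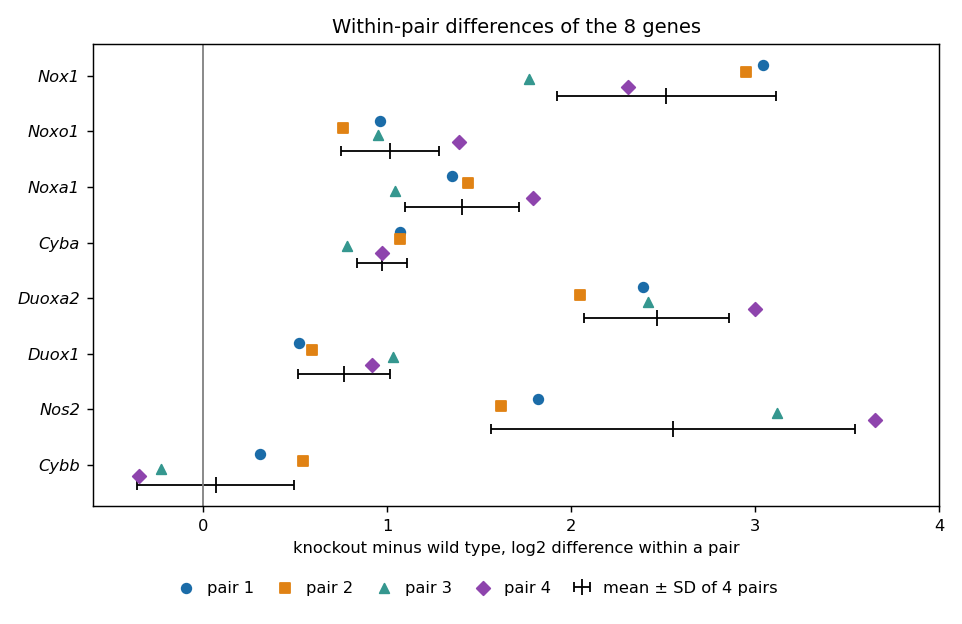
Knockout minus wild type, as log2 differences within each sibling pair (horizontal axis), for the 8 genes, with the mean and SD of the 4 pairs below the points. Nox1 has its larger differences in pairs 1 and 2, Nos2 and Duox1 have theirs in pairs 3 and 4, and Cybb lies on both sides of 0.

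The pairs did not order alike across the genes. The within-pair difference of Nos2 was 1.82 and 1.62 in pairs 1 and 2 and 3.12 and 3.65 in pairs 3 and 4. Nox1 ran the other way, with 3.04 and 2.95 in pairs 1 and 2 and 1.77 and 2.31 in pairs 3 and 4. Duox1, like Nos2, had its larger differences in pairs 3 and 4, with 0.52 and 0.59 against 1.03 and 0.92. Duoxa2, at 2.39, 2.05, 2.42 and 3.0, and Noxo1, at 0.96, 0.76, 0.95 and 1.39, had their largest difference in pair 4. Without pairs 1 and 2 the mean difference of Nos2 was 3.38 and that of Nox1 2.04. Without pairs 3 and 4 they were 1.72 and 3.0. The spread among knockouts mirrors that among wild types here, because the means of the 4 pairs are nearly equal in the deposited values.

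Other tissues also differed between these pairs. Stomach markers (9 of 11 measured) had median differences of −0.56 and −0.48 in pairs 1 and 2 but −3.81 and −4.01 in pairs 3 and 4. Pancreatic acinar markers (10 of 12 measured) had −0.43, 0.145, −3.82 and −3.37. The summed stomach signal on the linear scale was 395 to 813 in knockouts and 1203 to 5300 in wild types, and that of acinar genes 1535 to 3968 and 4952 to 17271. Gkn2 and Tff2, the stomach markers with the highest level, differed by −5.16 and −4.35 in pair 3 and by −5.41 and −4.26 in pair 4, and the stomach markers Gkn3 and Pgc were at or below background on average. The acinar markers with the highest level were Clps and Amy2a5, and none was at background on average. Clps, the colipase gene, was the 1 acinar gene called, lower by −2.57, −2.4, −2.25 and −3.5 in pairs 1 to 4 (limma adjusted p = 0.00335). Of the stomach list Muc5ac and Pgc were called lower (adjusted p = 0.0495 and 0.0231), and both lost their call on leaving out any 1 pair. Adipose markers (9 of 10 measured) had medians of 2.08, 1.73, 0.34 and −0.16, with Lep alone at background on average. Pparg was the 1 adipose gene called, higher by 1.02 ± 0.548 (adjusted p = 0.0375), and it lost its call without pair 1, 2 or 4. Their summed signal was 2159 to 7335 in knockouts and 1076 to 2531 in wild types, and Cidec and Fabp4 had the highest level. The part of these tissues in the pair differences of Nos2, Nox1 and Duox1 was not tested. Each of the 7 genes was higher in the knockout in both sets of pairs. Of 8 colon markers measured, 1 was higher and 1 lower by limma: B3gnt7, a glycosyltransferase gene, by 1.36 ± 0.203 (adjusted p = 0.00299) and Aqp8, a water channel of colon surface cells, by −0.90 ± 0.492 (adjusted p = 0.0411). Aqp8 lost its call on leaving out any 1 pair (adjusted p up to 0.115). Its differences in pairs 1 to 4 were −0.59, −0.38, −1.42 and −1.2, larger in pairs 3 and 4 like those of the stomach markers. Car1, Hoxd10 and Hoxd11 were at or below background on average. B3gnt7 and the pentraxin gene Mptx1 had the highest level. The summed colon signal was 2844 to 3043 in knockouts and 2166 to 2495 in wild types.

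Cybb, the phagocyte oxidase, read 8.74, 8.59, 8.97 and 9.03 in wild types and 9.05, 9.13, 8.74 and 8.68 in knockouts. The groups overlapped. It was higher in the knockouts of pairs 1 and 2, by 0.31 and 0.54, and lower in those of pairs 3 and 4, by −0.23 and −0.35, with a mean of 0.07 ± 0.426. The direction of this mean turned to −0.11 after centring the arrays on housekeeping genes, and without pair 1 or pair 2 it was −0.01 and −0.09. The difference of Cyba, its membrane partner, exceeded that of Cybb by 0.905 ± 0.339, in 4 of 4 pairs.

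Markers of the cells that carry Cybb were examined beside it. Of all 22206 probe sets, 6098 had an unadjusted p under 0.05 by limma. Of 15 monocyte and macrophage markers measured, limma called 0 (3 at unadjusted p under 0.05), and the list's median differences were 0.36, 0.15, −0.03 and −0.40 in pairs 1 to 4. The summed signal of these markers on the linear scale was 4707 to 6213 in knockouts and 6051 to 7478 in wild types. Lyz2, the macrophage and Paneth cell lysozyme, and the complement gene C1qa had the highest level of the list and differed by −0.50 ± 0.513 and −0.10 ± 0.563 (adjusted p = 0.147 and 0.792). With a mean log2 level of 11.61, against 8.89 for C1qa, Lyz2 weighs most in the summed signal of the list. Only Ccr2 of that list was at or below background on average. B cell markers, 6 measured, had medians of 0.935, 0.615, −0.13 and −0.005, and limma called 0 of them (2 at unadjusted p under 0.05). Their summed signal was 818 to 1277 in knockouts and 666 to 907 in wild types, Cd79a and Cd79b had the highest level, and Pax5 was at background. The sign of Cybb thus went with the sign of the macrophage median in each of the 4 pairs and with that of the B cell median too. This is not particular to these cells: the medians of the cytosolic oxidase subunits (0.36, 0.17, −0.075 and −0.06) and of peroxidases (0.23, 0.27, −0.04 and −0.09) had the same signs. Over all probe sets the differences of pairs 1 and 2 correlated at 0.682 and those of pairs 3 and 4 at 0.673, against 0.346 to 0.420 for the other combinations. The part of these cells in the values of Cybb was not tested.

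**Figure D3:**
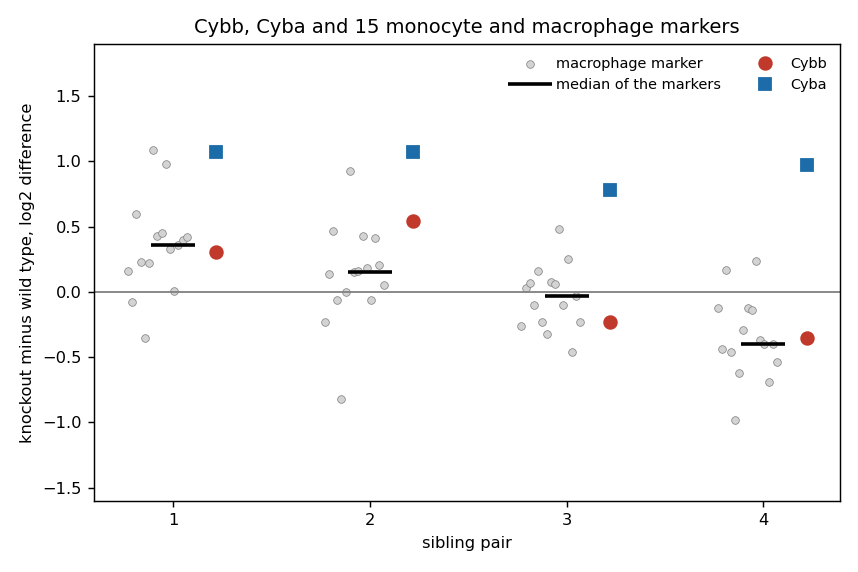
Knockout minus wild type (log2 difference, vertical axis) in each sibling pair (horizontal axis) for Cybb, Cyba and 15 monocyte and macrophage markers, with a bar at the median of the markers. Cybb is above 0 in pairs 1 and 2 and below it in pairs 3 and 4, as is the median, while Cyba lies between 0.78 and 1.07 in all 4 pairs.

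Of 11 neutrophil markers measured, 6 were at or below background on average, among them S100a8, S100a9 and Cxcr2, which define the cell type. The summed neutrophil signal was 587 to 636 in knockouts and 596 to 613 in wild types. Ltf, the lactoferrin gene, which epithelium can also express, was the 1 member called (0.82 ± 0.354, limma adjusted p = 0.0271), and it lost that call without pair 2, 3 or 4 (adjusted p up to 0.105). Elane, the other neutrophil gene with the highest level, differed by −0.17 ± 0.165 (adjusted p = 0.262). Of 6 eosinophil markers 4 were at or below background on average (Ccr3, Il5ra, Ear6 and Alox15), with a summed signal of 211 to 227 in knockouts and 239 to 283 in wild types. The eosinophil genes with the highest level, Prg2 and Siglecf, differed by 0.24 ± 0.204 and −0.30 ± 0.193 (limma adjusted p = 0.172 and 0.102), and Alox15 alone was called lower, a call lost without pair 2, 3 or 4 (adjusted p up to 0.132). Of 8 dendritic cell markers 2 were called higher, Flt3 and Clec9a, which were also the 2 at or below background on average. Flt3 lost its call on leaving out any 1 pair (adjusted p up to 0.130) and Clec9a without pair 1, 2 or 4 (up to 0.110). The summed dendritic signal was 723 to 751 in knockouts and 717 to 760 in wild types, and Ccr7 and Clec10a had the highest level. All 10 epithelial markers were above background, with Cdh17 and Krt20 the highest. Limma called 0 of them, with a median of −0.129. At unadjusted p under 0.05 there were 6 of the 10, against 6098 of all 22206 probe sets. Their medians in pairs 1 to 4 were −0.095, −0.07, −0.18 and −0.12. The summed epithelial signal was 57329 to 60235 in knockouts and 63871 to 64868 in wild types.

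The genes that share the pathway were taken from lists that hold none of the 10. Of all 22206 probe sets, 3.16% were called higher and 2.7% lower, and 6098 had an unadjusted p under 0.05 by limma. The cytosolic subunits and Rac proteins complete the phagocyte oxidase, and Rac1 serves the Nox1 complex as well. By limma 0 of the 6 measured were called (1 at unadjusted p under 0.05). The 2 with the largest differences were Ncf4 (p40phox), at 0.53 ± 0.460 (adjusted p = 0.106), and the small GTPase Rac2, at 0.29 ± 0.385 (adjusted p = 0.251). Ncf1 (p47phox), which the organizer Noxo1 resembles, averaged 8.14 in knockouts and 8.24 in wild types, and Rac1 13.06 and 13.00. The list's median was 0.09.

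Among 7 other oxidase and nitric oxide synthase genes, limma called 1 lower and 0 higher. Nos1ap, an adaptor of the neuronal synthase, fell by 0.65 ± 0.336 on the log2 scale, lower in 4 of 4 pairs (adjusted p = 0.0427), and lost its call without pair 1, 2 or 4 (adjusted p up to 0.131), with the pair as a random block (0.227) and with sex or RNA integrity (0.0621 and 0.0629). The catalytic genes Nox3, Nox4, Nos1 and Nos3 were all at or below background on average. The list's median was −0.08.

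Nos2 consumes arginine and needs tetrahydrobiopterin as a cofactor. Of 14 genes measured for the supply of both, limma called 1 lower and 0 higher. Qdpr, which regenerates tetrahydrobiopterin, fell by 0.46 ± 0.0562 on the log2 scale in 4 of 4 pairs (adjusted p = 0.0216), though on leaving out any 1 pair its adjusted p was between 0.0592 and 0.0952. With the pair as a random block, or with sex or RNA integrity, it was 0.0674, 0.0531 and 0.0573. Gch1, the entry enzyme of biopterin synthesis, averaged 8.54 in knockouts and 8.62 in wild types. Arg2, an arginase that competes for arginine, averaged 10.77 and 11.14 (adjusted p = 0.171), and Arg1 was at or below background. The list's median was −0.099.

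Of 17 genes for peroxidases and the breakdown of peroxide and superoxide, 2 were called higher and 0 lower by limma. Both encode glutathione peroxidases. Gpx2, the form typical of gut epithelium, read 12.45, 12.52, 12.17 and 12.17 in wild types and 13.19, 13.15, 13.39 and 13.39 in knockouts, a rise of 0.95 ± 0.312 (limma adjusted p = 0.0161). The groups did not overlap. Among the fits that left out 1 pair, the call was lost only without pair 4 (adjusted p = 0.0569). Gpx1, the form found in most cells, rose by 0.46 ± 0.197 (adjusted p = 0.0441), higher in 4 of 4 pairs. Its call, not its direction, was lost on leaving out any 1 pair (adjusted p 0.0623 to 0.149) and after centring on housekeeping genes (adjusted p = 0.0517). With RNA integrity as a covariate, Gpx1 and Gpx2 lost their calls. Lpo, the lactoperoxidase that uses hydrogen peroxide in secretions, was at or below background, as was Epx. Catalase (Cat) averaged 11.67 in knockouts and 11.98 in wild types, with an adjusted p of 0.0601 by limma. The list's median was 0.

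The last list held cytokines, receptors and transcription factors known to induce these oxidases or Nos2. Of 34 measured, 4 were called higher and 0 lower by limma, with a median of 0.04. Tnf, the cytokine that activates NF-κB, read 5.53, 5.46, 5.85 and 5.49 in wild types and 8.58, 8.68, 8.26 and 8.71 in knockouts. The rise of 2.98 ± 0.385 (adjusted p = 0.00114) was called on leaving out any 1 pair (adjusted p 0.00103 to 0.0126). It may be understated, since 3 of the 4 wild-type readings were at or below background. Il1b, at 0.67 ± 0.338 (adjusted p = 0.0399), Nfkb2, which encodes the p100 subunit, at 0.60 ± 0.256 (adjusted p = 0.0337), and Rela, which encodes the p65 subunit, at 0.38 ± 0.0592 (adjusted p = 0.0343), rose in 4 of 4 pairs too. On leaving out 1 pair their adjusted p reached 0.131, 0.107 and 0.128, and Rela lost its call after centring on housekeeping genes (0.0938). That centring gave 3 higher and 7 lower in the list. With RNA integrity as a covariate 1 gene of the list was called higher, and with sex 3. Il1b averaged 5.53 over all arrays, below background. Il1a, Il6, Ifng and Tlr5 were at or below background on average as well, so the arrays say little of these inducers.

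**Figure D4:**
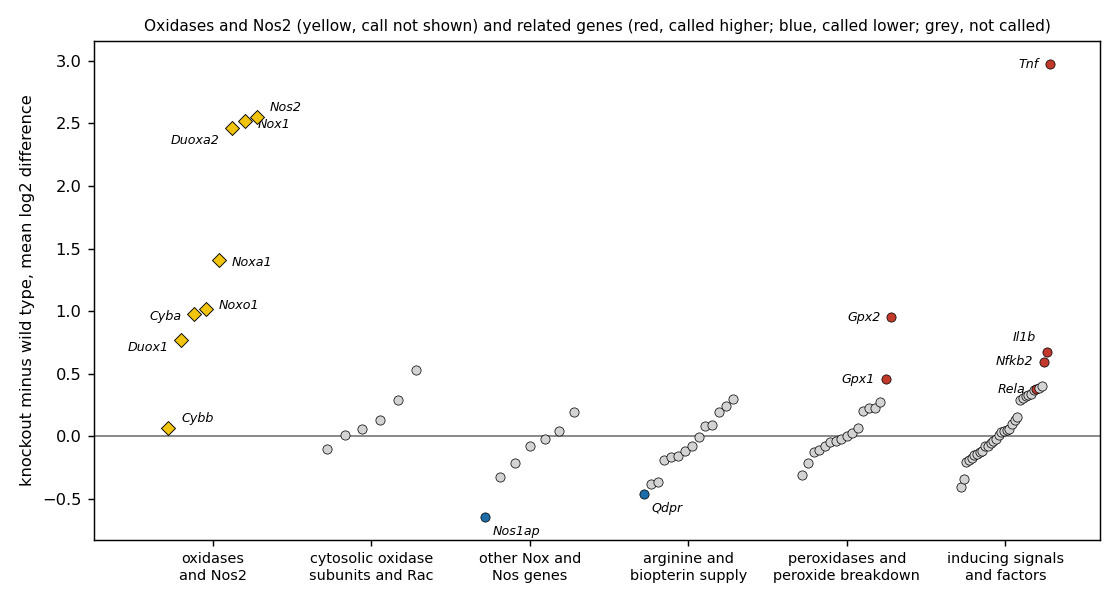
Mean knockout minus wild type difference (log2, vertical axis) of the 8 oxidase and Nos2 genes and of the genes in 5 related lists, each list sorted by value. Red and blue points were called higher and lower by limma over all probe sets. The 8 genes in yellow are shown without their calls, and 7 of them lie between 0.77 and 2.55, a range that Gpx2 and Tnf alone reach or pass in the related lists.

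The genes whose 4 within-pair differences lay nearest to those of Nox1, Nos2 and Duoxa2 were found by Euclidean distance over the 4 pairs, among 18509 other named probe sets. For Nox1 they were the chemokine gene Ccl20 (distance 0.916), the amino acid transporter gene Slc6a14 (0.957), the factor H-related gene Cfhr2 (0.973), Gml (0.984) and Ceacam10 (0.988). For Nos2 they were the fucosyltransferase gene Fut2 (1.09), Duoxa2 (1.19), Cfhr2 (1.82), Pigz (1.92) and Ccl20 (2.06). For Duoxa2 they were Cfhr2 (0.871), Pigz (0.935), Fut2 (1.09), Ccl20 (1.13) and Nos2 (1.19). Fut2, like Nos2, had its larger differences in pairs 3 and 4, at 1.31, 1.9, 2.46 and 3.0 in pairs 1 to 4. Distances over 4 differences rank likeness in size and in pair order together, and are a description.

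The deleted gene itself, Nfkbia, read lower in the knockout of each pair, by −2.93, −3.26, −1.29 and −3.13 (mean −2.65 ± 0.918, limma adjusted p = 0.0130). The direction held on leaving out any 1 pair, but the call was lost without pair 1, 2 or 4 (adjusted p = 0.0545, 0.0582 and 0.0512).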

How the data were processed

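RNA of frozen duodenum was hybridised to Clariom S mouse arrays, per the series' design text. The authors deposited log2 expression values per probe set, made with RMA and Transcriptome Analysis Console 4.0, per the submitters' processing notes, with settings not given in the sources used here. An unrecorded step had made the averages of the 4 sibling pairs nearly equal within each probe set (median SD 0.0175, against 0.0897 expected from the within-pair differences), so within-group SDs were not interpreted.

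All 22206 probe sets were fitted in R 4.3.3 with limma 3.58.1 (functions lmFit and eBayes, sibling pair as a fixed block, 3 residual degrees of freedom), two-sided, with Benjamini-Hochberg adjustment and a threshold of 0.05. The pairs are littermates per the labels. The deviations of siblings around the averages of their groups had correlations from −0.913 to −0.870, which the removal of pair means gives. The array medians lay between 6.77 and 6.81, and the number of arrays limits the precision. Values after ± are the SD of 4 within-pair differences. Where a gene had several probe sets, that with the highest mean was used. Background, 5.64, was the 95th percentile over the readings of 1091 olfactory receptor probe sets. No detection calls were used. The fit was tested on simulated data.

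Named are all measured genes of the list of 10, of each related list up to 4 called genes by size (with none called, the 2 with the largest difference), of each marker list the 2 with the highest level, Nfkbia, and the 5 nearest genes of Nox1, Nos2 and Duoxa2. Other genes named, such as markers at background, Aqp8, Ncf1, Rac1, Gch1, Arg2 and Cat, were picked after their values were seen. The 10 genes and the lists were chosen with earlier results of these data known. Alternatives were a fit without the pair, the pair as a random block, pairs left out, sex or RNA integrity (7 to 8.7) as a covariate, quantile normalization, a filter on dim probe sets, trend and robust variance, other thresholds, and centring on either 9 housekeeping or 10 epithelial genes.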

Additional observations from a re-analysis of the deposited data

Results flagged for a closer look

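Of 96 sets of 4 values (each named gene in each group), 1 had a sample far from the others. In knockouts, Nfkbia read 7.72 in pair 3 and 6.65 to 6.82 in the other pairs, so that 0.841 of the group's range lay between that array and the next. Its wild-type sibling read 9.01, against 9.75 to 9.91 in the other wild types. The means of the 4 pairs are nearly equal in the deposited values, so a high knockout goes with a low sibling. Chance alone marks about 1 in 20 such groups.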

How the results depend on the processing

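No result changed direction among those called. All 7 genes above were called higher with the pair as a random block, with sex, with the dim-probe filter, after quantile normalization and after either centring. They were also called without the pair as a block. That fit rests on within-group SDs, which the nearly equal pair means make small, so nothing is read from its calls. The random-block fit draws on the spread of the pair means too, so nothing is read from its calls either. Duox1 lost its call without pair 2 or 4 and with RNA integrity, and Nos2 with RNA integrity and with trend and robust variance. At a threshold of 0.01 the count was 4, and by limma it was 0 both without pairs 1 and 2 and without pairs 3 and 4 (4144 and 5278 probe sets at unadjusted p under 0.05), fits with 1 residual degree of freedom. Cyba moved to 0.80 after centring on housekeeping genes, more than its SD. That centring took the overall median difference from −0.015 to −0.19 and the share of higher among all calls from 54.0% to 7.90%. The 9 housekeeping genes themselves had a median difference of 0.2 in the reported fit, with 1 called higher. Centring on epithelial genes moved the share of higher calls to 79.4%.

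Over all probe sets the reported fit called 702 higher and 599 lower. Without the sibling pair as a block, limma called 3622 and 4026, and with a random block the lower calls were 982. The counts without the block, here and in the lists below, rest on the same small SDs. Those with a random block draw on the same nearly equal pair means. Leaving out 1 pair gave 89 to 219 higher and 56 to 240 lower. Without pairs 1 and 2 there were 1 and 25, and without pairs 3 and 4, 0 and 0. With sex there were 231 and 233, with RNA integrity 212 and 152, at a threshold of 0.01 64 and 33 and at 0.10 1673 and 1631. Higher calls were 1703 centred on epithelial genes and 1135 with trend and robust variance, and lower calls were 5616 centred on housekeeping genes. Of the 5 related lists together, 6 genes were called higher and 2 lower. Without the pair as a block these were 18 and 9, with the random block 10 and 0, without 1 pair 2 to 3 and 0 to 1, and without pairs 1 and 2 or pairs 3 and 4, 0 and 0. With RNA integrity they were 1 and 0, at 0.01 1 and 0 and at 0.10 13 and 4. Lower calls were 0 with sex and 17 centred on housekeeping genes, and higher calls were 14 centred on epithelial genes and 11 with trend and robust variance. Fewer samples enter the fits that leave out pairs; other causes were not tested.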
